A study of Mus musculus with 32 samples.

Results

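The genes described here are 7 short noncoding RNAs of the mouse, Rn7sk, Rmrp, Rpph1, Terc, Rny1, Rny3 and Gm23935, chosen by name among the 46078 genes quantified in 1-cell and 2-cell embryos. Rn7sk is the 7SK RNA, which holds the elongation kinase P-TEFb in an inactive particle until it is needed at promoters. Rpph1 and Rmrp are the RNA subunits of the related enzymes RNase P, which trims the leader of precursor transfer RNAs, and RNase MRP, which cuts the ribosomal RNA precursor. Terc is the template RNA of telomerase, and Rny1 and Rny3 are Y RNAs, which bind the Ro protein and are known from RNA quality control. In vertebrates all of these except Terc are made by RNA polymerase III, and none carries a polyA tail in its abundant mature form, so total RNA libraries are the natural place to measure them. Gm23935 is a predicted gene whose annotated type is miRNA, and no role is attached to it in the annotation.

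The study set embryos that lacked maternal DPPA2 or DPPA4 beside controls around the start of embryonic transcription. DPPA2 and DPPA4 are chromatin proteins that have been studied as activators of 2-cell genes in embryonic stem cells. Total RNA libraries covered the late 2-cell stage, 28 hours post fertilisation (hpf), and the late 1-cell stage, 12 hpf. At each stage the Dppa2 arm, on a mixed B6/DBA background, had m-z+ embryos (maternal product absent, zygotic allele present) and m+z+ controls, and the Dppa4 arm, on a B6 background, had the same 2 genotypes. Each of these 8 groups held 2 libraries, 16 in all, and the number of embryos per library is not given in the sources used here. The 16 polyA libraries came from single embryos: 3 each of Dppa2 m-z- and Dppa2 m-z+ (B6/DBA) and of Dppa4 m-z- and Dppa4 m-z+ (B6) at the 2-cell stage, and 2 wild-type (WT, B6) embryos at each of the 2-cell and 1-cell stages. Arm and strain background cannot be told apart. Nothing in the labels says that replicates came from separate collections, so a p-value reflects only how these libraries vary, and that variation may be technical.

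The deleted genes were checked first. In total RNA at the 1-cell stage Dppa2 had 9.38 and 9.52 FPKM in Dppa2 m-z+ embryos, against 32.3 and 32.7 FPKM in their controls, and Dppa4 had 1.13 and 0 FPKM in Dppa4 m-z+ embryos, against 4.37 and 6.92 FPKM in controls. At the 2-cell stage, where the zygotic allele is present, Dppa2 had 44.8 and 59.2 FPKM in Dppa2 m-z+ embryos, against 49.7 and 53.0 FPKM in controls, and Dppa4 had 25.5 and 20.3 FPKM in Dppa4 m-z+ embryos, against 30.1 and 17.6 FPKM in controls. In polyA RNA Dppa4 was listed at 0, 0 and 0.149 FPKM in Dppa4 m-z- embryos, against 125 to 155 FPKM in Dppa4 m-z+ embryos. The libraries labelled Dppa2 m-z- had 76.5 to 155 FPKM of Dppa2, against 63.3 to 92.4 FPKM in Dppa2 m-z+; the deleted part of the gene is not given in the sources used here, so a whole-gene value does not check that label. FPKM is the fragment number scaled to gene length and to the fragments mapped in the library. It carries no counts, so the depth of each library is unknown. Summed FPKM ranged from 509724 to 629583 in 2-cell and from 412115 to 471322 in 1-cell total RNA libraries.

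The sequences below are shown because they carry the features by which these RNAs are known, and because copies of Gm23935 limit what its value can mean. They are GENCODE M21 transcripts on mm10, written 5′ to 3′ as DNA. Rn7sk lies on chr9:78175303-78175633 (minus strand, 331 bases), and in its first 110 bases GATC, the repeated motif of the 7SK 5′ hairpin, is in capitals at 3 places. Terc lies on chr3:96414437-96414859 (minus strand, 423 bases), and the capitals in its first 60 bases mark the stretch that templates telomeric repeats.
Rn7sk: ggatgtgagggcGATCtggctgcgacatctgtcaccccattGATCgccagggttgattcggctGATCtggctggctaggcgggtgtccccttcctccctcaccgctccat
Terc: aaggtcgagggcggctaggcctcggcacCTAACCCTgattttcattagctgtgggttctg

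Rny1 (chr6:47788069-47788180, minus strand, 112 bases) and Rny3 (chr6:47781624-47781725, plus strand, 102 bases) are neighbours with 6343 bases between them. Capitals mark their longest shared stretch, 12 bases, and the final run of 4 T, the kind of run at which RNA polymerase III stops.
Rny1: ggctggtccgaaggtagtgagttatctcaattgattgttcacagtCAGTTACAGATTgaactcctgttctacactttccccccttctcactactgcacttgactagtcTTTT
Rny3: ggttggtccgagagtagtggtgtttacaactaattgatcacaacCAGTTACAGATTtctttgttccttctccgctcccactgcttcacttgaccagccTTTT

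Gm23935 is a 57-base model on chr16:11144125-11144181 (plus strand), in an intron of Zc3h7a, which is on the opposite strand. Gm24270 and Gm24245 have the same 57 bases, and Gm24187 (chr13:9834469-9834525, minus strand) differs by the substitution G11A, counted from 1 at the 5′ end, in capitals below.
Gm23935: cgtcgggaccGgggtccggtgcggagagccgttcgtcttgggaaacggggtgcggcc
Gm24187: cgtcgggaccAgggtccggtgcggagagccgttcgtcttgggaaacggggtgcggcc
Of 5 gene models at least 90% identical to Gm23935 over at least 80% of its length, Gm24270 averaged 4589 FPKM in 2-cell and 2208 FPKM in 1-cell libraries, Gm24187 251 and 135 FPKM, and the others 43.7 FPKM or less. Gm24245, with the same 57 bases as Gm23935 and Gm24270, averaged only 0.155 and 0.0721 FPKM. Models of identical sequence thus had very unlike values, and how reads were divided among them was not tested. Reads of such copies cannot be assigned with certainty, so the value of Gm23935 cannot be told apart from theirs. Gm24187 was grouped with ribosomal RNA loci in the gene lists used here, and what the reads of Gm23935 come from was not tested. Rmrp (chr4:43492788-43493058, minus strand, 271 bases) is also covered by a second, longer gene model of the same name that the tables do not list. Rpph1 (chr14:50807449-50807767, minus strand, 319 bases) overlaps an exon of Ccnb1ip1 on the same strand, so reads of the 2 can be confused. Ccnb1ip1 was far lower, with 6.31 to 27.3 FPKM at the 2-cell and 1.83 to 7.76 FPKM at the 1-cell stage.

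The word abundant holds for 3 of the 7 genes. By mean FPKM over the 16 total RNA libraries Gm23935 ranked first of 46078 genes at 35560 FPKM (SD 16991), Rn7sk ranked 6 at 10871 FPKM (SD 7170.4) and Rpph1 ranked 20 at 1510.4 FPKM (SD 740.0). Rny3 averaged 20.99 FPKM (SD 14.4), Rmrp 15.1 (SD 12.6), Rny1 5.17 (SD 3.08) and Terc 3.98 (SD 2.43), at ranks 3363 to 8592. Across 16 libraries the lowest Rpph1 value was 511 FPKM and the highest Rmrp value 51.1 FPKM, so the groups of 3 and 4 genes did not overlap. Among the lower 4 the ranges overlapped throughout.

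1 library stood apart on the short RNAs. In Dppa2 m-z+ 2-cell embryos, replicate 1 had 2.29 FPKM of Rny3, 1.40 of Rny1 and 20379 of Gm23935, and replicate 2 had 34.0, 4.87 and 65498 FPKM. For Rn7sk the order was the other way round, with 24056 FPKM in replicate 1, the highest of all libraries, and 16978 FPKM in replicate 2. Most structural RNAs outside the 7 were also lower in replicate 1. Of 22 structural RNAs under 300 bases, the 4 members of that length included, 19 were lower in replicate 1, with a median difference of -2.09 on the log2(FPKM + 1) scale. Of 7 at 300 bases or more, Rn7sk, Rpph1 and Terc included, 5 were lower, with a median of -0.85. Only Rn7sk and Terc were not lower. The longer RNAs outside the 7 were thus lower as well, from -2.235 for Scarna10 to -0.847 for Scarna2. Over all genes tested, those under 150 bases had a median difference of -0.46 between these libraries, and the longest class -0.08. The opposite sign appeared in Dppa4-arm controls at the 2-cell stage, where the medians of replicate 1 minus replicate 2 were 0.48 and 0.07 for the same 2 length classes. Calls of the members that rest on Dppa2 m-z+ replicate 1, and the main 2-cell shares, are given with and without it. Ranges in FPKM, the genes most like each member and the other structural RNAs are given with it. The part of transcript length in these results was not tested.

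**Figure D1:**
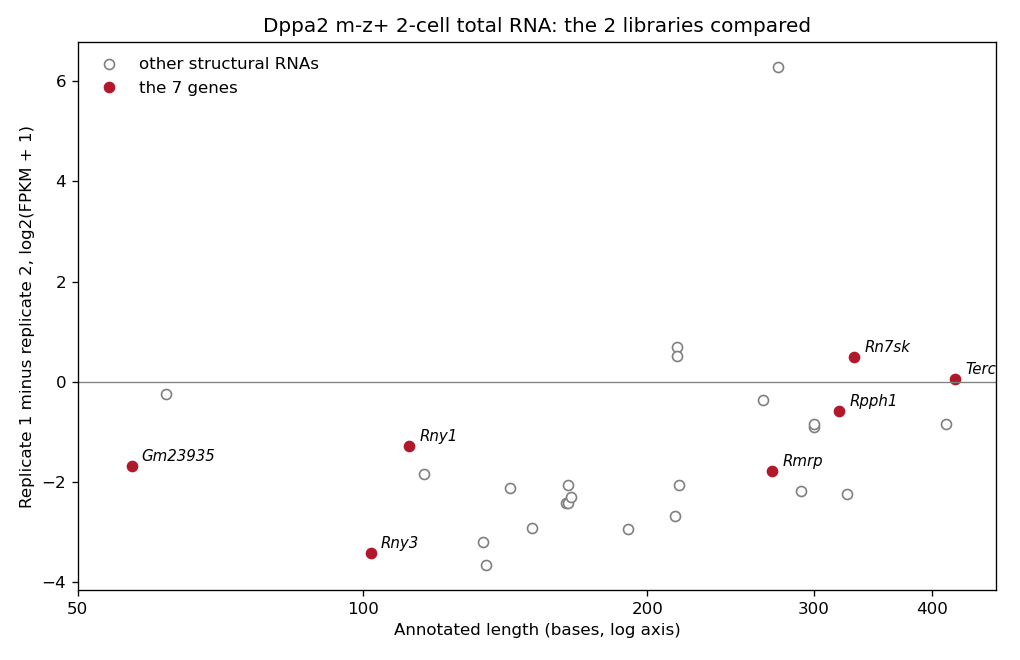
Difference between replicate 1 and replicate 2 of Dppa2 m-z+ 2-cell total RNA, in log2(FPKM + 1), against annotated length in bases on a log axis, for the 7 genes (filled) and 22 other structural RNAs (open). Rny3 lies at -3.41, Rny1 at -1.29 and Gm23935 at -1.68, and Rn7sk at 0.50 and Terc at 0.05 lie above 0.

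**Figure D2:**
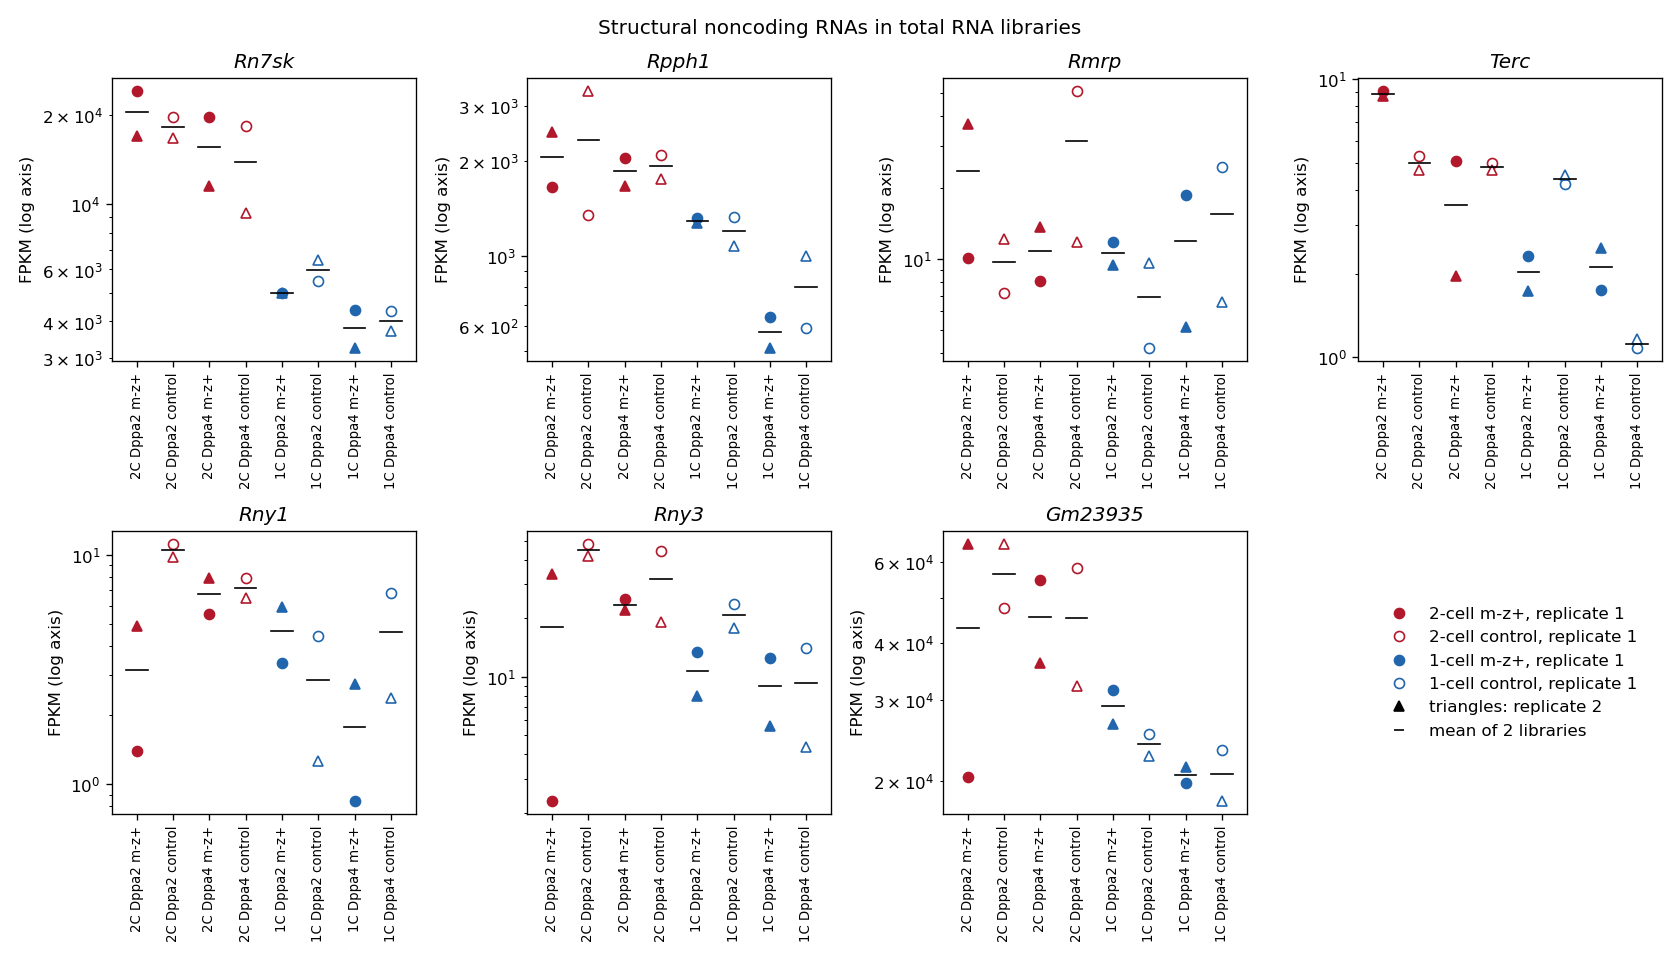
FPKM on a log axis in each of the 16 total RNA libraries, 1 panel per gene, with 2-cell groups in red and 1-cell groups in blue. Filled symbols are m-z+ and open symbols controls, circles are replicate 1 and triangles replicate 2, and bars are means of 2 libraries. In Rn7sk and Rpph1 every 2-cell library lies above every 1-cell library.

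The first comparison asks how these RNAs differ between the 2-cell and the 1-cell embryo, and all 7 passed the filter on low values in total RNA. Of the 7 genes, 6 rose at the 2-cell stage when the change was averaged over the 4 genotype groups (limma, Benjamini-Hochberg adjusted p under 0.05), and none fell. In the same comparison 78.1% of all 15068 genes tested were called, 40.4% as higher and 37.7% as lower, so that being called is the rule at this transition. The count was also 6 without Dppa2 m-z+ 2-cell replicate 1. With transcripts-per-million scaling it was 4, with Rny1 and Rny3 lost, and over all genes 4813 were then called higher and 7104 lower. The median log2 change was 0.95 over the 7 and 0.04 over all genes tested. Fold changes are relative to the whole library: a change in these RNAs and an opposite change in all others give the same FPKM, and in bulk samples fewer cells of a type and less RNA per cell cannot be told apart. Embryo stage markers mostly moved as the labels say, with all 15 oocyte and 1-cell markers lower and 20 of 21 tested 2-cell markers higher at the 2-cell stage. With transcripts-per-million scaling 20 2-cell markers were higher and 1 lower. Duxf3 went against its label, averaging 0.542 FPKM in Dppa2-arm control 2-cell embryos, against 4.41 FPKM at the 1-cell stage.

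Rn7sk had the largest change of the 7. Over the 8 libraries of a stage it ranged from 9344 to 24056 FPKM at the 2-cell stage, median 17639, and from 3248 to 6458 FPKM at the 1-cell stage, median 4689. The stages did not overlap, and the means differed 3.62-fold (log2 change 1.83 ± 0.15, limma standard error; adjusted p = 1.47e-07). By group, Rn7sk had 24056 and 16978 FPKM in Dppa2 m-z+ 2-cell embryos, against 5010.3 and 5014 FPKM at the 1-cell stage, and 19735 and 16682 FPKM in Dppa2-arm control 2-cell embryos, against 5465 and 6458 FPKM at the 1-cell stage. In the Dppa4 arm it had 19712 and 11512 FPKM in m-z+ 2-cell embryos, against 4367 and 3248 FPKM at the 1-cell stage, and 18301 and 9344 FPKM in control 2-cell embryos, against 4333 and 3720.0 FPKM at the 1-cell stage. No group overlapped between stages, and the change passed in each of the 4, with log2 changes of 1.61 to 2.01 (limma adjusted p between 0.000104 and 0.000557). It passed under all 22 alternatives of the averaged change, which ranged from 1.47 to 2.02. In the Dppa4 arm both 2-cell libraries numbered 2 were lower than those numbered 1.

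Rpph1, the RNase P RNA, was the other gene whose stages did not overlap. It ranged from 1354 to 3339 FPKM at the 2-cell stage, median 1909.7, and from 511 to 1328 FPKM at the 1-cell stage, median 1042. The means differed 2.12-fold (log2 change 1.12 ± 0.18, limma adjusted p = 6.74e-05). In Dppa4 m-z+ it had 2057 and 1669 FPKM at the 2-cell stage, against 644 and 511 FPKM at the 1-cell stage, and in Dppa4-arm controls 2102 and 1762 FPKM, against 591 and 1004 FPKM; both changes passed (log2 1.69 ± 0.35 and 1.32 ± 0.35, limma adjusted p = 0.00158 and 0.0079). In Dppa2 m-z+ it had 1659 and 2472 FPKM at the 2-cell stage, against 1323 and 1271 FPKM at the 1-cell stage, and in Dppa2-arm controls 1354 and 3339 FPKM, against 1328 and 1080.2 FPKM. Neither of these passed (log2 0.64 ± 0.35 and 0.83 ± 0.35, limma adjusted p = 0.137 and 0.058), although the groups did not overlap; that of the controls passed without 2-cell replicate 1 (1.48, limma adjusted p = 0.00197). The stage changes of the Dppa2 and Dppa4 arms differed by -0.77 ± 0.35 (limma adjusted p = 0.232; 3.41% of all genes called), so an arm difference was not shown. It passed in only 1 of 22 alternatives, the fit without Dppa2-arm control 2-cell replicate 2 (-1.10), which leaves 1 library in that group. In Dppa4-arm controls the call was lost without replicate 1 of either stage (limma adjusted p = 0.0921 without the 1-cell and 0.0568 without the 2-cell library).

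Rmrp, the RNA of the sister enzyme RNase MRP, was the member that did not pass. It ranged from 7.21 to 51.1 FPKM at the 2-cell stage, median 12.0, and from 4.19 to 24.5 FPKM at the 1-cell stage, median 9.51. The stages overlapped over most of their range (log2 change 0.57 ± 0.40, 95% interval -0.30 to 1.43, limma adjusted p = 0.206). The interval holds no change and also a change as large as that of Rpph1. Replicates of 1 group were far apart, with 51.1 and 11.8 FPKM in Dppa4-arm control 2-cell embryos and 10.05 and 37.0 FPKM in Dppa2 m-z+ 2-cell embryos.

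Terc, the telomerase template, was low throughout and rose on average. It ranged from 1.96 to 9.04 FPKM at the 2-cell stage, median 5.04, and from 1.08 to 4.53 FPKM at the 1-cell stage, median 2.03. The stages overlapped, and the means differed 2.31-fold (log2 change 0.95 ± 0.15, limma adjusted p = 6.09e-05). The change passed in 2 of the 4 groups. Dppa2 m-z+ embryos had 9.04 and 8.70 FPKM at the 2-cell stage, against 2.32 and 1.74 FPKM at the 1-cell stage (log2 1.71 ± 0.30, limma adjusted p = 0.000297). Dppa4-arm controls had 4.98 and 4.71 FPKM, against 1.08 and 1.16 FPKM (log2 1.46 ± 0.30, limma adjusted p = 0.00132). In the other groups it did not pass: Dppa2-arm controls had 5.28 and 4.71 FPKM, against 4.21 and 4.53 FPKM, and Dppa4 m-z+ embryos had 5.09 and 1.96 FPKM, against 1.75 and 2.48 FPKM, which passed without 2-cell replicate 2 (0.98, limma adjusted p = 0.0114). The 1-cell controls of the 2 arms did not overlap, with 4.21 and 4.53 FPKM in the Dppa2 arm and 1.08 and 1.16 FPKM in the Dppa4 arm (log2 1.34 ± 0.30, limma adjusted p = 0.0568). This difference missed the threshold as fitted and passed in only 2 of 11 alternatives. These were transcripts-per-million scaling (adjusted p = 0.0443) and a fit of only those 4 libraries (adjusted p = 0.0337, both limma).

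The Y RNAs rose on average with wider spreads. Rny1 ranged from 1.40 to 11.1 FPKM at the 2-cell stage, median 7.18, and from 0.843 to 6.80 FPKM at the 1-cell stage, median 3.05 (log2 change 0.84 ± 0.27, limma adjusted p = 0.012). Rny3 ranged from 2.29 to 48.0 FPKM at the 2-cell stage, median 29.5, and from 4.38 to 23.6 FPKM at the 1-cell stage, median 12.9 (log2 change 1.03 ± 0.42, limma adjusted p = 0.0384). In both genes the lowest 2-cell value was that of Dppa2 m-z+ replicate 1, and the stages overlapped. Without it the changes were 1.00 for Rny1 (limma adjusted p = 0.00413) and 1.46 for Rny3 (limma adjusted p = 0.000356). With transcripts-per-million scaling neither passed (0.55 for Rny1 and 0.69 for Rny3, limma adjusted p = 0.0694 and 0.124). By group, Rny1 had 11.1 and 9.77 FPKM in Dppa2-arm control 2-cell embryos, against 4.45 and 1.26 FPKM at the 1-cell stage (log2 1.70 ± 0.54, limma adjusted p = 0.0151). It had 5.502 and 7.94 FPKM in Dppa4 m-z+ 2-cell embryos, against 0.843 and 2.73 FPKM at the 1-cell stage (log2 1.54 ± 0.54, limma adjusted p = 0.0301). Neither Rny1 call of a single group is firm: the first was lost without 1-cell replicate 2 (log2 1.07, adjusted p = 0.163) or 2-cell replicate 1 (1.62, adjusted p = 0.0647), and the second without 1-cell replicate 1 (1.03, adjusted p = 0.222), 2-cell replicate 1 (1.77, adjusted p = 0.0566) or 2-cell replicate 2 (1.31, adjusted p = 0.15; all limma). The second was also lost with no filter (limma adjusted p = 0.0842) and with transcripts-per-million scaling (0.0532).

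Rny3 passed in none of the 4 groups taken alone, though it passed in Dppa2-arm controls and in Dppa4 m-z+ when only the compared libraries were fitted (limma adjusted p = 0.00745 and 0.0183). It had 48.0 and 41.6 FPKM in Dppa2-arm control 2-cell embryos, against 23.6 and 17.9 FPKM at the 1-cell stage, and 25.0 and 22.0 FPKM in Dppa4 m-z+ 2-cell embryos, against 12.4 and 5.57 FPKM at the 1-cell stage. Dppa4-arm controls had 44.4 and 19.1 FPKM at the 2-cell stage, against 14.1 and 4.38 FPKM. These 3 groups did not overlap between stages, and Dppa2 m-z+ did. There the change was -0.08 ± 0.84 with both libraries (limma adjusted p = 0.943), 1.62 without replicate 1 (limma adjusted p = 0.0446) and -1.79 without replicate 2 (limma adjusted p = 0.0294), and in these last 2 fits the lone library is assumed to vary like the others. The averaged Rny3 call was lost in 11 of the 16 fits that left out 1 library, with changes of 0.605 to 1.079 and adjusted p between 0.0506 and 0.097 in limma.

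Gm23935 rose about as much as the Y RNAs, from a far higher level. It ranged from 20379 to 65498 FPKM at the 2-cell stage, median 51230.2, and from 18044 to 31538 FPKM at the 1-cell stage, median 22985. The means differed 2.02-fold (log2 change 0.94 ± 0.21, limma adjusted p = 0.00134), and the change without Dppa2 m-z+ replicate 1 was 1.15 (limma adjusted p = 1.76e-05). That library was the single 2-cell value within the 1-cell range. Gm23935 had 47601 and 65453 FPKM in Dppa2-arm control 2-cell embryos, against 25331 and 22662 FPKM at the 1-cell stage, and passed (log2 1.22 ± 0.43, limma adjusted p = 0.0248). It had 54860 and 36178 FPKM in Dppa4 m-z+ 2-cell embryos, against 19768 and 21426 FPKM at the 1-cell stage, and passed narrowly (log2 1.11 ± 0.43, limma adjusted p = 0.0448). In Dppa4-arm controls, with 58088 and 32245 FPKM, against 23309 and 18044 FPKM, it missed narrowly (log2 1.08 ± 0.43, limma adjusted p = 0.0523) and passed without 2-cell replicate 2 (1.502, adjusted p = 0.0302). In Dppa2 m-z+ it had 20379 and 65498 FPKM at the 2-cell stage, against 31538 and 26577 FPKM at the 1-cell stage (log2 0.34 ± 0.43, limma adjusted p = 0.519), and it passed there without replicate 1 (1.18, limma adjusted p = 0.0119). The call of the Dppa2-arm controls was lost without 1-cell replicate 1 or 2 or 2-cell replicate 2 (limma adjusted p = 0.0637, 0.0982 and 0.132), with no filter (0.0708) and with transcripts-per-million scaling (0.0877). That of Dppa4 m-z+ was lost without any 1 of its 4 libraries (limma adjusted p between 0.0518 and 0.238), with no filter (0.119) and with that scaling (0.0984).

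**Figure D3:**
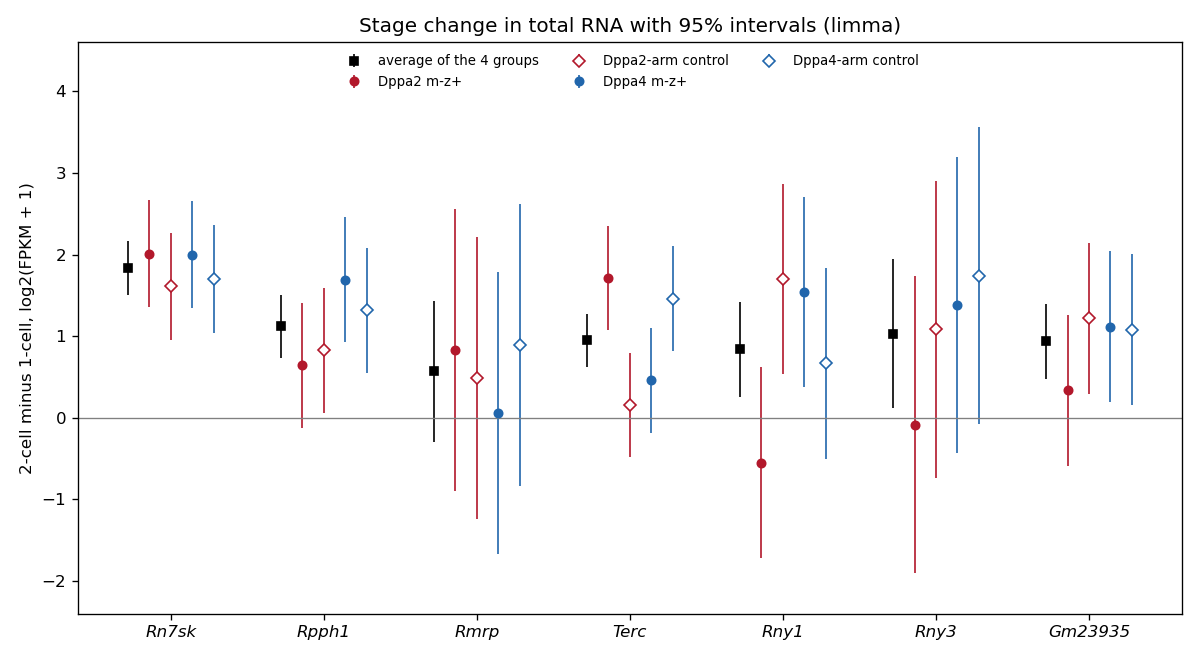
Stage change, 2-cell minus 1-cell in log2(FPKM + 1), for each gene, as limma estimates with 95% intervals, averaged over the 4 genotype groups (squares) and in each group. Rn7sk lies above 0 in every group, at 1.61 to 2.01, and Rmrp has an interval that includes 0 in every group.

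Counted by group, 2 of 7 rose in Dppa2 m-z+, Rn7sk and Terc, where 57.3% of all genes were called and 28.8% were called higher. In Dppa2-arm controls 3 of 7 rose, Rn7sk, Rny1 and Gm23935 (61.6% called, 31.7% higher). In Dppa4 m-z+ 4 of 7 rose, Rn7sk, Rpph1, Rny1 and Gm23935 (50.3% called, 25.3% higher). In Dppa4-arm controls 3 of 7 rose, Rn7sk, Rpph1 and Terc (49.1% called, 24.9% higher). None of the 7 fell in any group. Set against calls in both directions these counts are near or below the background, and against calls as higher they are near or above it. Without Dppa2 m-z+ 2-cell replicate 1 the first count was 4, with Rny3 and Gm23935 added.

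As a share of each library the 7 genes together took 8.49 to 14.03% of summed FPKM at the 2-cell stage, median 12.6%, and 5.46 to 8.04% at the 1-cell stage, median 6.85%. The stages did not overlap in this sum, which carries no test. Without Dppa2 m-z+ 2-cell replicate 1 the 2-cell range was the same and the median 13.6%. Gm23935 made up 44.2 to 77.0% of the sum at the 2-cell stage and 75.0 to 85.0% at the 1-cell stage. Alone it took 3.99 to 10.8% of a 2-cell library, median 9.002%, and 4.32 to 6.69% of a 1-cell library, median 5.39%, and the stages overlapped. Without Dppa2 m-z+ 2-cell replicate 1 Gm23935 took 6.31 to 10.8% of a 2-cell library, median 9.93%, and the stages still overlapped. Rn7sk took 1.83 to 4.71% at the 2-cell stage, median 3.03%, and 0.788 to 1.48% at the 1-cell stage, median 1.06%, with no overlap. Without that replicate its 2-cell share was 1.83 to 3.57%, median 2.79%. Rpph1 averaged 0.364 ± 0.085% of a 2-cell library and 0.221 ± 0.070% of a 1-cell library (SD, n = 8 each). Rmrp, Terc, Rny1 and Rny3 together took 0.00446 to 0.0193% and 0.00347 to 0.0111%.

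By genotype the share of the 7 was 9.03 and 13.97% in Dppa2 m-z+ 2-cell embryos and 11.7 and 13.6% in their controls, and 13.9 and 9.69% in Dppa4 m-z+ 2-cell embryos and 14.03 and 8.49% in their controls. At the 1-cell stage it was 8.04 and 7.28% in Dppa2 m-z+ embryos and 7.20 and 6.93% in controls, and 5.99 and 6.12% in Dppa4 m-z+ embryos and 6.77 and 5.46% in controls. In each arm the 2 libraries of a 2-cell group differed by more than the group means did. FPKM divides by length, so a 57-base gene model reaches a high value from few fragments. Shares were therefore also weighted by annotated exonic length, a rough stand-in for the share of fragments. That length joins all annotated exons of a gene and can exceed the length behind its FPKM, so these shares may be too low. The 7 genes then took 0.568 ± 0.123% of a 2-cell library and 0.185 ± 0.033% of a 1-cell library (SD, n = 8 each). Rn7sk exceeded Gm23935, with means of 0.356% against 0.171% at the 2-cell stage and 0.0898% against 0.0775% at the 1-cell stage.

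**Figure D4:**
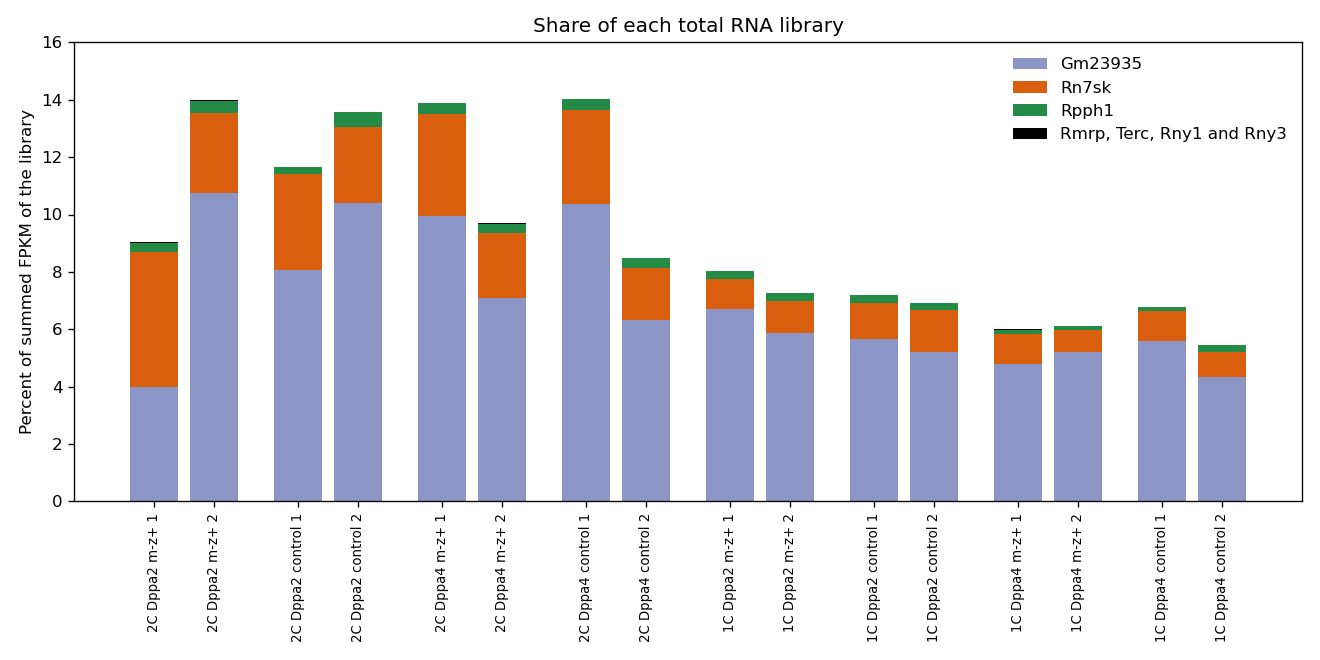
Share of summed FPKM in each total RNA library, stacked by gene, with 2-cell groups at the left and the replicate number at the end of each label. The stacks reach 8.49 to 14.03% in 2-cell and 5.46 to 8.04% in 1-cell libraries, and in Dppa2 m-z+ 2-cell replicate 1 Rn7sk, at 4.71%, is larger than Gm23935, at 3.99%.

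The second comparison asks whether the loss of maternal DPPA2 or DPPA4 shifted these RNAs. At the 2-cell stage none of the 7 passed in limma between Dppa2 m-z+ embryos and their controls (0.186% of all genes called), and 3, Terc, Rny1 and Rny3, had an unadjusted p under 0.05, as did 1932 of the 15068 genes tested. Terc had 9.04 and 8.70 FPKM in Dppa2 m-z+ 2-cell embryos, against 5.28 and 4.71 FPKM in controls (log2 0.72 ± 0.30, limma adjusted p = 0.329). Rny1 had 1.40 and 4.87 FPKM, against 11.1 and 9.77 FPKM (log2 -1.60 ± 0.54, limma adjusted p = 0.23), and Rny3 had 2.29 and 34.0 FPKM, against 48.0 and 41.6 FPKM (log2 -2.09 ± 0.84, limma adjusted p = 0.317). The groups did not overlap in these 3 genes, but how many of all genes did not overlap was not counted, so no difference is drawn from it. Without replicate 1 of Dppa2 m-z+ the values were 0.70, -0.96 and -0.39 and none of the 7 passed. Without replicate 2 in its place Rny3 (-3.80, limma adjusted p = 0.00985) and Gm23935 (-1.45, limma adjusted p = 0.0423) passed as lower, but m-z+ was then the 1 library that stood apart, and the fit assumes that it varies like libraries of the other groups. Rn7sk, with 24056 and 16978 FPKM against 19735 and 16682 FPKM, had a difference of 0.16 with a 95% interval of -0.50 to 0.81.

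In 1-cell embryos of the Dppa2 arm none of the 7 passed in limma between m-z+ and control (0.0398% of all genes called), and 1, Terc, had an unadjusted p under 0.05, as did 459 of all genes. Terc had 2.32 and 1.74 FPKM in Dppa2 m-z+ 1-cell embryos, against 4.21 and 4.53 FPKM in controls (log2 -0.83 ± 0.30, limma adjusted p = 1). Terc was thus lower in m-z+ at the 1-cell and higher at the 2-cell stage in every library, and the difference between its stage changes was 1.55 ± 0.42 (limma unadjusted p = 0.00273, adjusted p = 0.312). How many of all genes turned round in this way was not counted, so no difference is drawn from it. The difference of stage changes passed for none of the 7 in the Dppa2 arm (0% of all genes called; 2 of the 7, Terc and Rny1, and 1299 genes at an unadjusted p under 0.05). For Rny1 it was -2.25 ± 0.76 (limma adjusted p = 0.441), and -1.61 without Dppa2 m-z+ 2-cell replicate 1 (limma adjusted p = 0.631).

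In the Dppa4 arm none of the 7 passed in limma between m-z+ and control embryos at the 2-cell stage (0% of all genes called, 402 genes and none of the 7 at an unadjusted p under 0.05) or at the 1-cell stage (0.00664% called, 192 genes and none of the 7 unadjusted). Rn7sk had 19712 and 11512 FPKM in Dppa4 m-z+ 2-cell embryos, against 18301 and 9344 FPKM in controls, and the 95% interval of its difference ran from -0.46 to 0.86 (log2). For Gm23935 the difference was 0.04 with an interval of -0.88 to 0.97, and for Rpph1 -0.05 with an interval of -0.82 to 0.71. The difference of stage changes between Dppa4 m-z+ and control also passed for none of the 7 (0.00664% called; 1 of the 7, Terc, at -1.003 ± 0.42, and 270 genes at an unadjusted p under 0.05). Between the control groups of the 2 arms none passed in limma at the 2-cell stage (9.13% called; none of the 7 and 3975 genes unadjusted) or at the 1-cell stage (1.01% called; 1 of the 7, Terc, and 1167 genes unadjusted).

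In polyA RNA the 7 genes together took 0.0326 to 0.241% of summed FPKM in 14 2-cell and 0.0352 to 0.0854% in 2 1-cell libraries. Gm23935 averaged 504 FPKM at the 2-cell and 311 FPKM at the 1-cell stage, Rn7sk 31.1 and 14.5 FPKM, and Rpph1 3.48 and 0.812 FPKM. Rmrp was listed at 0 in 15 of 16 polyA libraries and Terc in 11 of 16. The 4 genes that passed the filter on low values in this table were Rn7sk, Rpph1, Rny1 and Gm23935, and the other 3 were not tested. The polyA and total RNA tables were normalised separately, so levels are not compared across them by a test.

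Between WT stages none of the 4 passed in limma (25.9% of all genes called; none of the 4 and 6817 of 18506 genes at an unadjusted p under 0.05). Rn7sk had 32.6 and 31.5 FPKM in WT 2-cell embryos, against 10.98 and 18.0 FPKM at the 1-cell stage (log2 1.13 ± 0.56, limma adjusted p = 0.155), and Rpph1 had 2.99 and 3.03 FPKM, against 0.912 and 0.712 FPKM (log2 1.15 ± 0.65, limma adjusted p = 0.217). Neither overlapped between stages, and how many of all genes did not overlap was not counted. Each passed in only 1 of 11 alternatives, the fit of only those 4 libraries (limma adjusted p = 0.0359 and 0.0405). Gm23935 had 639 and 455 FPKM, against 180.2 and 442 FPKM (log2 0.93 ± 0.74, limma adjusted p = 0.396), also without overlap. Rny1 had 0.389 and 0 FPKM, against 0 and 0.884 FPKM (log2 -0.22 ± 0.60, limma adjusted p = 0.855), and overlapped.

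Among 2-cell polyA genotypes none of the 4 passed in limma for Dppa2 m-z- against m-z+ (0.0054% of all genes called; none of the 4 and 1415 genes unadjusted), Dppa4 m-z- against m-z+ (0.0162% called; 1 of the 4, Rny1, and 1296 genes unadjusted), Dppa4 m-z- against WT (0.0648% called; 1, Rny1, and 1976 genes) or Dppa4 m-z+ against WT (0% called; none and 1230 genes). Rny1 had 0.911, 5.29 and 1.25 FPKM in Dppa4 m-z- embryos, against 0, 0 and 0.0794 FPKM in Dppa4 m-z+ embryos (log2 1.55 ± 0.49, limma adjusted p = 0.605) and 0.389 and 0 FPKM in WT embryos (log2 1.35 ± 0.55, limma adjusted p = 0.389). Its 3 Dppa4 m-z- values lay above the other 2-cell values of this arm and WT, and the comparisons share the m-z- libraries. How many of all genes were separated in this way was not counted, so no difference is drawn from it. Rny1 was also near the floor, listed at 0 in 8 of 16 polyA libraries. In the Dppa2 arm Rny1 had 1.81, 0 and 0 FPKM in embryos labelled m-z-, against 0, 0.269 and 0 FPKM in m-z+ embryos, which overlapped. Rn7sk had 29.7, 27.8 and 53.3 FPKM in embryos labelled Dppa2 m-z-, against 25.2, 34.1 and 64.6 FPKM in Dppa2 m-z+ embryos. It had 28.5, 28.4 and 20.98 FPKM in Dppa4 m-z- embryos, against 7.65, 20.5 and 30.4 FPKM in Dppa4 m-z+ embryos. Genotypes overlapped in both arms.

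**Figure D5:**
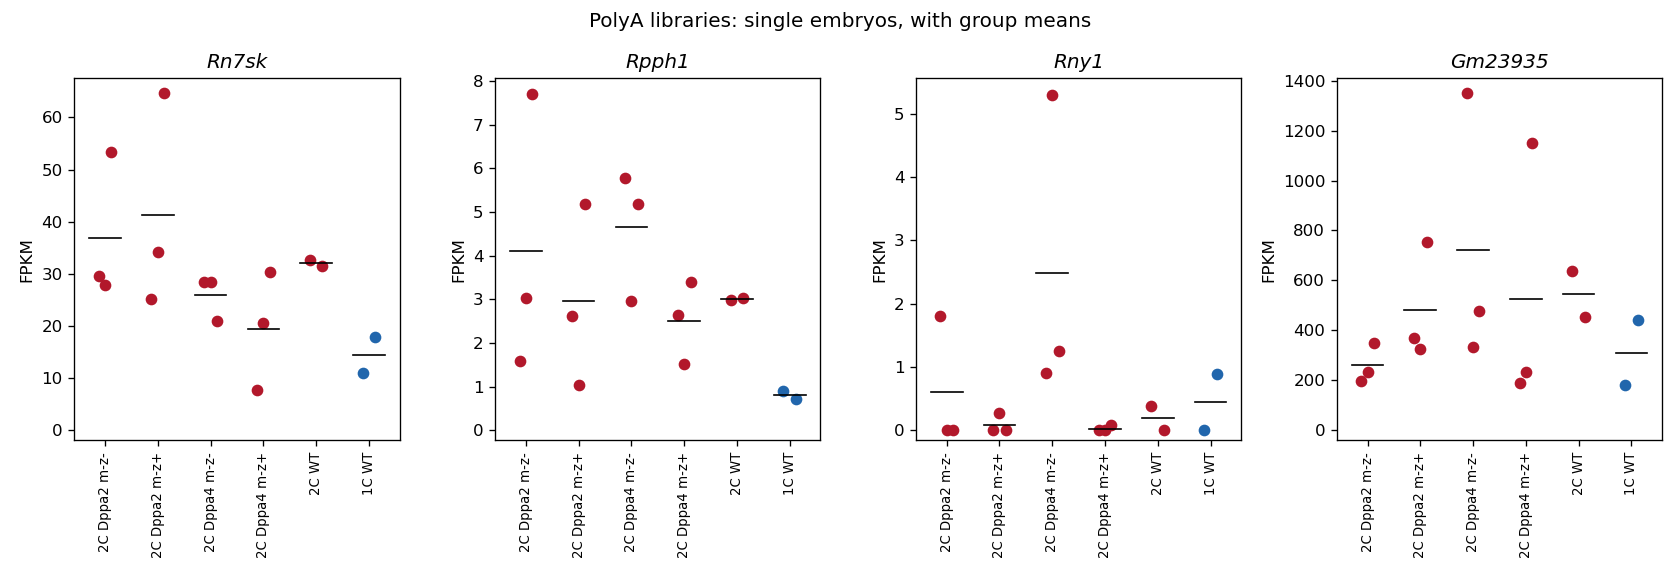
FPKM of the 4 genes tested in polyA libraries, each point 1 embryo and each bar a group mean, with 2-cell groups in red and 1-cell WT in blue. Rn7sk and Rpph1 in WT are higher at the 2-cell stage without overlap, and Rny1 has 0.911 to 5.29 FPKM in the 3 Dppa4 m-z- embryos and 1.81 FPKM in 1 embryo labelled Dppa2 m-z-.

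The members did not rise and fall as 1 group between replicates. Measured as deviations from the group mean over 16 libraries, which share their group and their FPKM total, Rny3 went with Gm23935 (r = 0.86) and with Rmrp (r = 0.77), and Rn7sk with neither Gm23935 (r = 0.11) nor Rpph1 (r = -0.09). Without the Dppa2 m-z+ 2-cell pair, over 14 libraries, Rny3 and Gm23935 gave r = 0.58, Rny3 and Rmrp 0.78, and Rn7sk and Gm23935 0.69. The last value thus turned on that pair. Replicates come in pairs, so these values rest on as many independent deviations as there are groups.

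The 3 genes most like each member across the 16 total RNA libraries, by Pearson r on log2(FPKM + 1), all had higher means at the 2-cell stage. The r values thus include the stage difference, which for Rmrp itself did not pass. For Rn7sk they were Gm12735 (r = 0.98), Gsk3a (0.98) and mt-Nd1 (0.98). For Rpph1 they were Rn7s1 (0.94) and Rn7s2 (0.93), which are RNAs of the signal recognition particle, and Plekha5 (0.94). For Terc they were Hist1h3a (0.91), Ppapdc1b (0.91) and Agpat1 (0.90), all protein-coding. The nearest to the shortest members were mostly small RNAs: Snord83b (0.93), Gm5909 (0.87) and Gm25291 (0.87) for Rny1, the snRNA Gm25313 (0.90) and the snoRNAs Gm24233 (0.90) and Gm23297 (0.90) for Rny3, and the snoRNA Gm22422 (0.96), Scarna8 (0.95) and Vaultrc5 (0.95), a vault RNA, for Gm23935. Rmrp had no neighbour above 0.78 (Gm13400).

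Of 22 other structural RNAs tested, 15 were higher at the 2-cell stage, none was lower and 7 did not pass, with a median log2 change of 0.90. With transcripts-per-million scaling 11 of 21 were higher and none was lower. Scarna10, a guide RNA of Cajal bodies, had 25.4 FPKM at the 2-cell and 5.15 FPKM at the 1-cell stage (log2 2.05 ± 0.35, limma adjusted p = 0.000145). Vaultrc5 had 1161 and 392 FPKM (log2 1.48 ± 0.25, limma adjusted p = 0.000124). Rn7s1 had 33704 and 13640.2 FPKM and Rn7s2 33206 and 13658 FPKM, as means of 8 libraries (log2 1.33 ± 0.13 and 1.299 ± 0.12, limma adjusted p = 6.03e-07 and 4.64e-07). The 2 mitochondrial ribosomal RNAs rose as well, mt-Rnr1 to 40949 FPKM, against 17168 FPKM, and mt-Rnr2 to 42348 FPKM, against 16597 FPKM (log2 1.24 ± 0.09 and 1.35 ± 0.07, limma adjusted p = 3.02e-08 and 7.72e-10).

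The messenger RNAs of partner proteins went both ways. As background for these lists, 40.4% of all genes tested were called higher and 37.7% lower. Of 21 genes of the 7SK particle and P-TEFb, 11 were higher and 8 lower at the 2-cell stage, with a median of 0.35. With transcripts-per-million scaling 10 were higher and 9 lower, with a median of 0.011. Hexim1, which inhibits P-TEFb when bound to 7SK RNA, had 36.8 FPKM at the 2-cell and 0.683 FPKM at the 1-cell stage (log2 4.496 ± 0.12), and Cdk9, the kinase of P-TEFb, 36.0 and 3.72 FPKM (2.88 ± 0.21). Syncrip, an RNA-binding protein, had 70.1 and 1.24 FPKM (5.002 ± 0.18). Ssb, the La protein that binds the 3′ ends of RNA polymerase III transcripts, was lower, with 69.8 FPKM at the 2-cell and 843 FPKM at the 1-cell stage (-3.58 ± 0.07; limma adjusted p between 1.54e-12 and 3.78e-08 for these 4).

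Of 37 genes of RNA polymerase III and its factors, 22 were higher and 10 lower, with a median of 0.59. These became 18 higher and 11 lower, with a median of 0.235, with transcripts-per-million scaling. Gtf3c5 (36.1 against 0.460 FPKM), Gtf3c4 (17.7 against 0.527 FPKM), Snapc2 (15.8 against 0.413 FPKM) and Polr1c (26.1 against 1.59 FPKM) were the genes with the largest changes, at 3.32 to 4.61 on the log2 scale. Gtf3c4 and Gtf3c5 are subunits of TFIIIC, Snapc2 of the small nuclear RNA activating complex that serves promoters such as that of 7SK, and Polr1c is shared by RNA polymerases I and III.

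Proteins of RNase P and RNase MRP fell more often than they rose, with 2 of 12 gene models higher, 6 lower and a median of -0.29; the counts were 4 higher and 5 lower with scaling to genes outside structural and mitochondrial RNAs. Rpp25 was higher (21.6 against 0.158 FPKM, log2 4.28 ± 0.12), and Rpp38 (3.55 against 28.2 FPKM, -2.71 ± 0.11), Rpp25l (1.16 against 5.47 FPKM, -1.61 ± 0.16) and Pop4 (11.4 against 32.2 FPKM, -1.36 ± 0.15) were lower, 2-cell against 1-cell. Of 17 telomerase genes 7 were higher and 5 lower, and 5 higher and 9 lower with transcripts-per-million scaling. Tert, the reverse transcriptase that uses Terc, is not among the 4 with the largest changes, which were Ruvbl1 (3.48 ± 0.18), Wrap53 (2.71 ± 0.15), Zcchc8 (-2.50 ± 0.16) and Nhp2 (1.74 ± 0.12), and was chosen for mention after its values were seen: it had 1.59 FPKM at the 2-cell and 6.96 FPKM at the 1-cell stage (-1.65 ± 0.15, limma adjusted p = 3.23e-07). Of 10 Ro and La proteins 3 were higher and 4 lower (3 and 6 with transcripts-per-million scaling), among them Larp1 (2.54 ± 0.17), Pnpt1 (-1.04 ± 0.13) and Larp4 (1.005 ± 0.07) besides Ssb. Of 9 signal recognition particle proteins 2 were higher and 6 lower, with Srpr higher (1.501 ± 0.15) and Srp54b, Srp54a and Srp14 lower (-1.42 ± 0.07, -1.299 ± 0.08 and -0.99 ± 0.13). The medians of the telomerase and of the Ro and La lists, -0.08 and -0.07, turned positive (0.11 and 0.12) with scaling to genes outside structural and mitochondrial RNAs and were -0.44 and -0.43 with transcripts-per-million scaling.

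Markers of cells that an embryo sample could carry along were low in total RNA. The 15 cumulus and granulosa markers summed to 9.26 to 15.1 FPKM in 2-cell and 6.40 to 11.1 FPKM in 1-cell libraries, the 10 sperm markers to 2.88 to 5.66 and 5.33 to 15.0 FPKM, and the 10 blood cell markers to 4.92 to 14.9 and 0 to 0.184 FPKM. At the 2-cell stage 4, 3 and 4 genes of these lists were listed at 0 in every library. In 2-cell polyA libraries the blood cell markers reached 1584 FPKM, and their part in the polyA values of the 7 genes was not tested.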

How the data were processed

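RNA sequencing was analysed from 32 libraries, 16 of total RNA and 16 of polyA RNA. The deposited tables hold FPKM per gene and library; per the submitters' processing notes the authors used HISAT2 2.1.0, StringTie 1.3.3b and mm10. The sources used here do not give the annotation or any filter. Total RNA libraries are reverse-stranded per the labels; polyA libraries are not stranded, so antisense and overlapping reads cannot be told apart there.

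Genes that reached 1 FPKM in 2 or more libraries (15068 in total RNA, 18506 in polyA RNA) were fitted in limma 3.58.1 (R 4.3.3, statmod 1.5.0) on log2(FPKM + 1), with all groups of a table together, a trend and robust moderation. This scale understates changes of low genes. Tests were two-sided, adjusted by Benjamini-Hochberg within each of 14 total RNA and 5 polyA comparisons. The fit was tested on simulated data. Shares are percentages of summed FPKM and carry no test. Sequences and positions are from GENCODE M21, and copies were sought with BLAST 2.17.0. No library repeated another. The members and gene lists were chosen with earlier results of these data known. Named were all 7 members, up to 4 genes per list with the largest averaged stage change among those that passed, and the 3 genes most like each member.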

Additional observations from a re-analysis of the deposited data

Results flagged for a closer look

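For Terc, Dppa2 m-z+ against control went in opposite directions at the 2 stages in every library: higher at the 2-cell stage (9.04 and 8.70 FPKM, against 5.28 and 4.71 FPKM) and lower at the 1-cell stage (2.32 and 1.74 FPKM, against 4.21 and 4.53 FPKM). The difference between the 2 stage changes was 1.5525 on the log2 scale and missed the threshold (limma adjusted p = 0.312; 0% of all genes called). In 1-cell embryos Terc also went in opposite directions in the 2 arms, lower in Dppa2 m-z+ and higher in Dppa4 m-z+ (1.75 and 2.48 FPKM, against 1.08 and 1.16 FPKM in controls), a difference of -1.3762 that was not tested. How many of all genes show either pattern was not counted, so no difference is drawn from them.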

How the results depend on the processing

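No library has a known depth, and groups of 2 or 3 libraries leave wide intervals. Of 1529 log2 changes of members recomputed under alternatives, 1474 kept their direction and side of the threshold, 36 lost a call, 18 gained one, and 1 turned round past the threshold (Rny3 in Dppa2 m-z+ between stages, -0.08 as fitted, -1.788 without 2-cell replicate 2 and 1.619 without replicate 1). Members called between stages in Dppa4 m-z+ numbered 4 as fitted, 2 with no filter and 2 with transcripts-per-million scaling, which moved the median of all genes to -0.26 from 0.04 in the averaged stage change and called 4813 genes higher and 7104 lower, against 6083 and 5685 as fitted. With it Rny1 (0.55, limma adjusted p = 0.0694) and Rny3 (0.69, adjusted p = 0.124) lost the averaged call, as Rny3 did with a pseudocount of 0.1 (adjusted p = 0.054) or no filter (adjusted p = 0.0937); the cause was not tested. Dppa2-arm against Dppa4-arm controls at the 1-cell stage called 1 member with that scaling and 1 with only the compared libraries fitted, which also called 2 in WT polyA RNA between stages. Leaving out 1 library, which in total RNA leaves a group of 1 whose spread is taken from the other groups, gave 5 to 6 members for the averaged change, 1 to 3 in Dppa2-arm controls, 2 to 4 in Dppa2 m-z+, 2 to 4 in Dppa4-arm controls, 2 to 3 in Dppa4 m-z+, 0 to 2 between Dppa2 m-z+ and control 2-cell embryos and 0 to 1 for the arm difference of stage changes. The share of the 7 was 18.84% at the 2-cell and 8.265% at the 1-cell stage without other structural, ribosomal and mitochondrial genes, and 0.5683% and 0.1854% weighted by length. In the first of these Gm24187 was left out with the ribosomal genes and Gm23935 was kept. Gm23935 alone then took 13.38% at the 2-cell and 6.655% at the 1-cell stage. Over all genes, calls were few and moved with the setting between Dppa2 m-z+ and control embryos (28 as fitted at the 2-cell stage, 0 to 111 with other settings and 26 to 448 with 1 library left out; 6 at the 1-cell stage, 2 to 49), and between the controls of the arms (1375 at the 2-cell stage, 11 to 1420 and 129 to 2465; 152 at the 1-cell stage, 121 to 286 and 40 to 54). For the arm difference of stage changes they were 514 as fitted, 208 to 469 with other settings and 90 to 1519 with 1 library left out, and for WT polyA stages 4784, 4425 to 7263 and 2743 to 3323. In the Dppa4 arm they were 0 at the 2-cell stage (up to 54) and 1 at the 1-cell stage (up to 18). No member was called in these except as given above.

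Same-numbered libraries showed little shared deviation across genes. The r lay between -0.06 and 0.14 for total RNA and between -0.18 and 0.08 for polyA RNA. Not every polyA embryo matched its own number best. Numbers were therefore not treated as pairs. In both 2-cell groups of the Dppa4 arm, however, Rn7sk, Rpph1, Terc, Rny3 and Gm23935 were higher in replicate 1. Rmrp and Rny1 were higher in replicate 1 of the controls and lower in replicate 1 of m-z+. With a replicate block 6 members were called in the averaged stage change, 3 in Dppa2-arm controls, 2 in Dppa2 m-z+, 3 in Dppa4-arm controls and 3 in Dppa4 m-z+, where Gm23935 was lost (limma adjusted p = 0.0587), and none in the genotype comparisons.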
